A study of Mus musculus with 6 samples.

Results

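Cma1, which encodes a mast cell chymase, and 8 further mast cell genes (Mcpt1, Mcpt2, Mcpt4, Cpa3, Tpsb2, Fcer1a, Ms4a2 and Kit) were followed across 6 expression arrays of mouse colon epithelium. The members were all probe sets, groups of short probes that together read a transcript, whose array annotation gave exactly 1 gene symbol and whose symbol was one of these names. This gave 12 probe sets for 9 genes, out of 45101 probe sets and 18194 genes with a probe set of 1 symbol. Cma1 was chosen by its higher log2 values in the knockouts, so its genotype difference is a description and carries no test. The other genes were taken as mast cell genes, to see whether they followed it.

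The knockout mice were vil-Cre-Bcl9-/-/Bcl9l-/- and the controls were labelled wildtype, all 12 weeks old and on a 129SvEv/C57BL/6/DBA/2 mixed background. BCL9 and BCL9L help beta-catenin switch on Wnt target genes, and vil-Cre is a Cre recombinase under the villin promoter, which is active in intestinal epithelial cells and not known from mast cells. Only the knockout labels name the recombinase, so its own effects and those of the deletions cannot be told apart. Knockouts 1, 2 and 3 were pools of 3, 2 and 2 mice, and wild types 4, 5 and 6 were pools of 3 mice each. The epithelium was shaken off the muscle after 1.5 to 2 hours in EDTA and was not sorted, so mast cells that came off with it were measured too. Values are log2 expression values made with RMA, a method that corrects background, normalizes arrays to each other and combines the probes of a probe set.

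Mast cells are tissue immune cells filled with granules of proteases, histamine and the proteoglycan serglycin, which they release when antigen cross-links IgE on the high-affinity receptor. Mouse mast cells come in a mucosal kind, which sits in and under the gut epithelium and is marked by the chymases Mcpt1 and Mcpt2, and a connective tissue kind, marked by the chymases Cma1 and Mcpt4, the carboxypeptidase Cpa3 and the tryptase Tpsb2. The kind is not fixed, and cells with mixed protease content are known. Kit, the receptor for stem cell factor, is needed by both kinds.

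Probe sets of the targeted genes differed between genotypes by -0.20 to 0.22 on the log2 scale (2 for Bcl9, 3 for Bcl9l). Whether these probes lie in the deleted parts is not stated, so they check nothing. All 12 epithelial markers had means above the median gene, with the adhesion protein Epcam at 13.50 to 13.72 and the keratin Krt8 at 13.63 to 13.69 in their brightest probe sets. Wild type 6 stood apart in lymphocyte, macrophage and fibroblast markers. Its B and plasma cell level was 3.42, against -1.14 to -0.15 in the other arrays. A level here is the median over a list's genes of the log2 value minus that gene's 6-array mean. For the named mast cell genes, values that it moves most are also given without it.

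Cma1 is the first gene of a protease cluster on chromosome 14 that runs through Mcpt1, Mcpt2 and Mcpt4 to the granzymes, in the order of the RefSeq gene table (GRCm38.p6). In these arrays Cma1 read differently from its neighbours Mcpt1 and Mcpt4. The start regions of these genes are shown as a description, and their part in that difference was not tested. Each sequence runs from 250 bases before to 50 bases after the RefSeq start in GRCm38.p6, and capitals mark TGATAA, a form of the GATA factor motif, and TATAAA, the TATA box.

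Cma1, minus strand, chr14:55944626-55944925: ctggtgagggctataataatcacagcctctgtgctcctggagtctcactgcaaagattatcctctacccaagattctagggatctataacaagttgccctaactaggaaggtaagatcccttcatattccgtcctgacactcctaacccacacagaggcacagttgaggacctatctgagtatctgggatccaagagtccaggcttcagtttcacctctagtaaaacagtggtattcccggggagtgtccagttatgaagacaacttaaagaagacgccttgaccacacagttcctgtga
Mcpt1, plus strand, chr14:56017714-56018013: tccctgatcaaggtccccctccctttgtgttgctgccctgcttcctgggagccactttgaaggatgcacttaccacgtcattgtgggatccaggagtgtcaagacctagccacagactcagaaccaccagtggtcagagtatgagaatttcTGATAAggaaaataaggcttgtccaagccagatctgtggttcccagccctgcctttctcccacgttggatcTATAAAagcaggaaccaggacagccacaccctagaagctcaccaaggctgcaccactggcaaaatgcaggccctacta
Mcpt4, minus strand, chr14:56062261-56062560: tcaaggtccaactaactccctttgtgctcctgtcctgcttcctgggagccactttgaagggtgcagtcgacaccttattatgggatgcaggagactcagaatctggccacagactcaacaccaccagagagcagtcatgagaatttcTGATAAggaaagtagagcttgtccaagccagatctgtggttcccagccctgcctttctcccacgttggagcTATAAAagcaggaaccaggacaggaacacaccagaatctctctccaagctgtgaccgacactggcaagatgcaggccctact

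The Mcpt1 and Mcpt4 windows were 85.6% identical over 291 aligned bases. Cma1 shared 56.1% of 239 aligned bases with Mcpt1 and 57.4% of 263 with Mcpt4. Gaps were allowed and the identity of unrelated windows was not worked out, so the Cma1 shares do not show likeness. Mcpt1 and Mcpt4 each held 1 TGATAA and 1 TATAAA, and the Cma1 window held neither, with both strands searched. The Cma1 window had 1 CANNTG, the E-box core that the mast cell factor MITF can bind, and the Mcpt1 and Mcpt4 windows had none. Of 32544 promoter windows of this length, TGATAA was in 8.91%, TATAAA in 13.6% and CANNTG in 72.3% of them. The other GATA form searched was AGATAA, present in 11.2% of windows. It was found 3 times in Ms4a2, once in Cpa3 and once in Fcer1a, and in none of the 3 windows shown. GATA forms that end in G were not searched, and the Cma1 window holds ctatct, which is AGATAG on the other strand. These counts therefore do not show that the Cma1 window lacks a GATA motif. RefSeq windows matched 7 of the 9 genes, not Mcpt2 and Tpsb2. These are matches of letters only.

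Cma1 was higher in every knockout array than in every wild-type array. Its only probe set, 1449456_a_at, read 8.74, 8.28 and 8.79 in knockouts 1, 2 and 3 and 6.99, 7.07 and 7.34 in wild types 4, 5 and 6. The lowest knockout and the highest wild type were thus clearly apart, and the knockouts lay within 0.51 and the wild types within 0.35 of each other. Knockout arrays averaged 8.60 ± 0.28 (SD, n = 3) and wild-type arrays 7.13 ± 0.18 (SD, n = 3). The means differed by 1.47, or 2.77-fold. Leaving out any 1 array gave 1.37 to 1.63, and 1.57 without wild type 6. The probe set ended in _a_at and no second Cma1 probe set was there to set beside it.

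**Figure D1:**
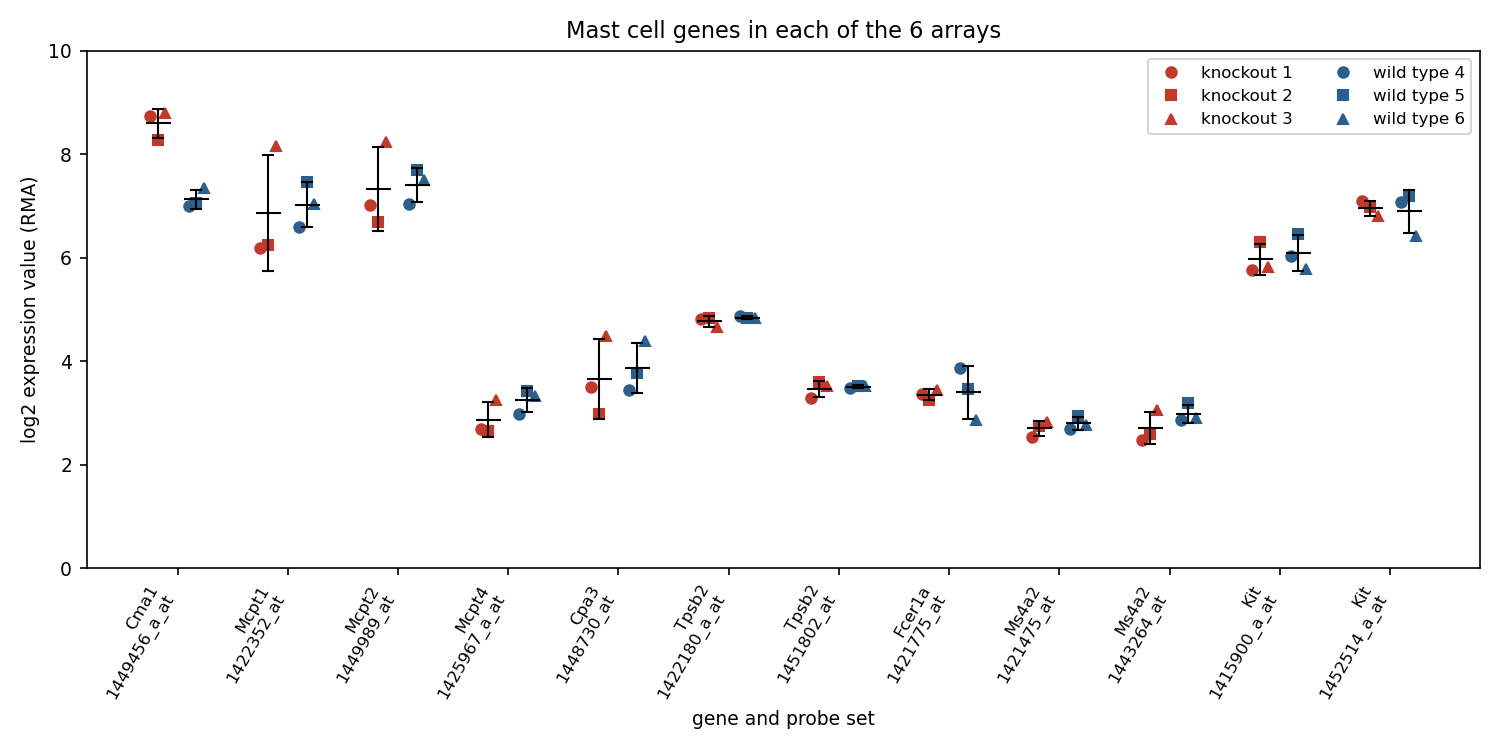
Log2 expression value (vertical axis) of each of the 12 mast cell probe sets (horizontal axis) in the 6 arrays, red for knockout and blue for wild type, with black bars for the mean ± SD of 3 arrays. The Cma1 groups do not overlap, at 8.28 to 8.79 against 6.99 to 7.34. The groups overlap for the other 11 probe sets, as they do for most probe sets on the array.

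None of the other 8 genes separated the genotypes as Cma1 did. Of their 11 probe sets, 0 had every knockout array above every wild-type array, where 4.92% of all probe sets did, and 0 had every knockout array below, where 4.78% did. With so few probe sets, an absence is near those shares and is not particular to these genes. In limma's test over all 45101 probe sets, 0 of the 11 passed, against 0% of all probe sets (0 called, 1876 at an unadjusted p under 0.05, and 0.328 as the smallest adjusted p). The 11 had adjusted p of 0.991 to 0.998 and 0 were at an unadjusted p under 0.05. These calls come from the contrast that chose Cma1 and are given as a description. Differences ran from -0.38 for Mcpt4 to 0.06 for a Kit probe set, with 10 below 0 and 1 above. These signs were not stable: with limma's array weights Mcpt1, Mcpt2 and Cpa3 stood at 0.15, 0.16 and 0.10 and the brighter Kit probe set at -0.08, and with arrays scaled to epithelial markers Fcer1a stood at 0.03. The interval of Mcpt1 was the widest, at -1.46 to 1.14.

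**Figure D2:**
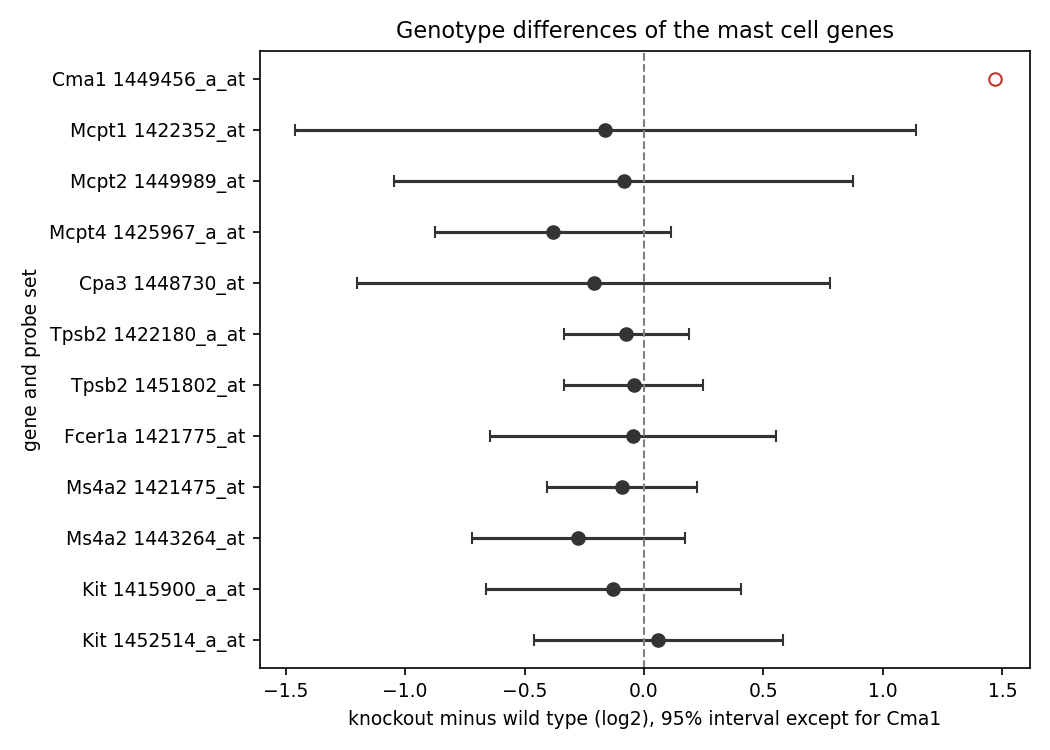
Difference between knockout and wild type on the log2 scale (horizontal axis) for each mast cell probe set (vertical axis), with limma's 95% interval over 3 arrays per group for all but Cma1, which was selected on this difference and is shown as an open point with no interval. Cma1 stands at 1.47 and the other 11 probe sets lie between -0.38 and 0.06, with intervals that include 0.

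Among the mucosal chymases, Mcpt1 (1422352_at) read 6.18, 6.24 and 8.17 in knockouts 1, 2 and 3 and 6.59, 7.46 and 7.03 in wild types 4, 5 and 6. Knockout 3 was the highest array and the other knockouts were the lowest, so the wild types lay between them. The difference was -0.16 (SE 0.55), with an SD of 1.13 in the knockouts and 0.43 in wild type (n = 3 each). Within the knockouts alone, knockout 3 was 3.79-fold above the next array.

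Mcpt2 (1449989_at), the other chymase of mucosal mast cells, read 7.03, 6.70 and 8.25 in knockouts 1, 2 and 3 and 7.04, 7.69 and 7.50 in wild types 4, 5 and 6. The arrays fell in the same order as for Mcpt1 from knockout 3 down to wild type 4, and knockouts 1 and 2 changed places at the bottom. The difference was -0.09 (SE 0.40). Mcpt1 and Mcpt2 are close relatives, and whether probes of one also read the other was not tested. Without knockout 3 the differences were -0.81 for Mcpt1 and -0.55 for Mcpt2. Without knockout 1 that of Mcpt1 was 0.18, and without knockout 2 that of Mcpt2 was 0.23, so single pools turned the sign of both.

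Mcpt4 (1425967_a_at), the chymase that accompanies Cma1 in connective tissue mast cells, read 2.70, 2.65 and 3.26 in the knockouts and 2.99, 3.43 and 3.34 in wild type, in the order of replicate numbers. Knockouts 1 and 2 were the lowest arrays and knockout 3 lay inside the wild-type range. The difference, -0.38 (SE 0.21; -0.58 to -0.27 with any 1 array left out), was opposite in sign to that of Cma1. Its mean stood at the 13.6th percentile of all probe sets, a dim reading that is not shown to be above background, since no detection call was used.

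Cpa3 (1448730_at), the carboxypeptidase stored with Cma1 in the granule, read 3.50, 2.98 and 4.49 in the knockouts and 3.44, 3.77 and 4.40 in wild type. Again knockout 3 was highest and knockout 2 lowest, and the difference was -0.21 (SE 0.42). It was -0.63 without knockout 3, 0.13 without knockout 2 and 0.05 without wild type 6. The Cpa3 mean lay at the 25.5th percentile.

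**Figure D3:**
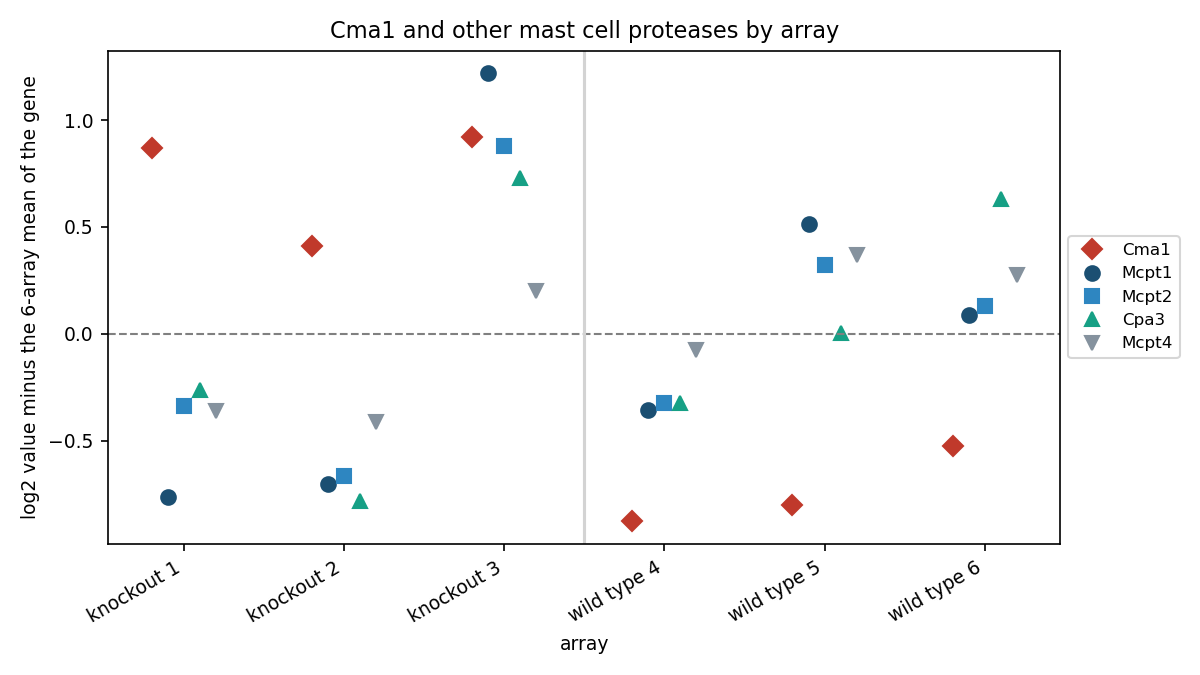
Log2 value minus the 6-array mean of the gene (vertical axis) in each array (horizontal axis) for Cma1, Mcpt1, Mcpt2, Cpa3 and Mcpt4, 1 point per gene and array. Cma1 is at 0.41 to 0.92 in knockout arrays and -0.88 to -0.53 in wild-type arrays, while the other 4 proteases are below 0 in knockouts 1 and 2 and above 0 in knockout 3.

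The tryptase Tpsb2 barely varied. Its probe set 1422180_a_at read 4.82, 4.84 and 4.65 in the knockouts and 4.87, 4.83 and 4.83 in wild type, all within 0.22 of each other. The difference was -0.07 (SE 0.11), and that of 1451802_at was -0.04 (SE 0.12), with values of 3.29 to 3.59. Both lay in the lower part of the array, with means at the 40.8th and 20.9th percentiles.

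The receptor genes gave low readings in which the genotypes overlapped. Fcer1a, the IgE-binding chain of the receptor, read 3.37, 3.24 and 3.45 in the knockouts and 3.87, 3.47 and 2.86 in wild type, so the wild types held both the highest and the lowest array. The difference was -0.05 (SE 0.25), with -0.32 without wild type 6 and 0.19 without wild type 4, so it had no stable sign. Ms4a2, the beta chain that amplifies its signal, was the dimmest member. Its probe set 1443264_at read 2.47, 2.59 and 3.06 in the knockouts and 2.87, 3.18 and 2.90 in wild type, a difference of -0.28 (SE 0.19; -0.45 to -0.16 with any 1 array left out), and 1421475_at differed by -0.09 (SE 0.13). Their means were at percentiles 9.78 and 7.93 of all probe sets.

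Kit was read by a pair of probe sets of middling brightness. The brighter, 1452514_a_at, read 7.09, 6.98 and 6.80 in the knockouts and 7.07, 7.19 and 6.42 in wild type, a difference of 0.06 (SE 0.22) that ran from -0.18 without wild type 6 to 0.21 without wild type 5. The other, 1415900_a_at, read 5.77, 6.30 and 5.83 against 6.04, 6.47 and 5.79, a difference of -0.13 (SE 0.22). Knockout 3, the highest array for Mcpt1, Mcpt2 and Cpa3, was the lowest knockout in the brighter Kit probe set. Kit is also made by secretory cells of the colonic crypt base and by interstitial cells of Cajal, the pacemaker cells of gut muscle. Reg4, which marks the crypt cells, read 13.45, 13.21 and 12.92 in the knockouts and 13.13, 12.90 and 12.86 in wild type. The 5 listed markers of these crypt cells, Reg4 among them, had 2 differences above and 3 below 0, with a median of -0.01. The Cajal cell marker Ano1, which epithelium can also express, read 10.56 to 10.95 in knockout arrays and 10.70 to 11.06 in wild-type arrays. The part of these cells in the Kit reading was not tested.

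Over the 8 genes besides Cma1, with the brightest probe set of each, the median difference was -0.12, with 7 genes below 0 and 1 above. Over all 18194 genes the median was 0.01, with 47.8% below 0. The median of the 8 was -0.50 without knockout 3 and 0.03 without knockout 2. Their level by array was -0.30, -0.33 and 0.21 in knockouts 1, 2 and 3 and -0.03, 0.29 and 0.07 in wild types 4, 5 and 6. In pooled tissue, the number of mast cells and the RNA per mast cell cannot be told apart.

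Further genes of mast cell granules, signalling, eicosanoid synthesis and development gave no call either. Of 36 listed, 30 had a probe set of 1 symbol; 11 stood above and 19 below 0, with a median of -0.07. None passed limma's test over all genes, where 0% did. The groups did not overlap for 0 genes upward (5.5% of all genes) and for 2 downward (4.83% of all genes). With so few genes, these counts are near those shares. The 2 were Alox5ap, needed for leukotriene synthesis, and the receptor gene Mrgprb1, both picked out after their values were seen. The Mrgprb1 mean lay at the 2.11th percentile of all probe sets. Of the 30 genes, 9 had a mean above the median gene, and whether the dim values exceed background is not shown.

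The tryptase gene Tpsab1, a dim reading with its mean at the 14.5th percentile, differed by 0.02 (SE 0.15), or -0.06 without wild type 6. Hdc, which makes histamine, differed by -0.17 (SE 0.13, and -0.18 in its other probe set), or -0.09 without wild type 6. Gata2, a transcription factor that mast cells need, differed by -0.07 (SE 0.10) in its brighter and 0.10 in its other probe set. Fcer1g, the signalling chain of the IgE receptor, differed by -0.12 (SE 0.23), which turned to 0.06 without wild type 6. Kitl, the ligand of Kit, differed by -0.07 (SE 0.18), or -0.19 without wild type 6, and its other probe sets by -0.08 to 0.07. Hpgds, which makes prostaglandin D, differed by 0.27 (SE 0.24), and by 0.47 without wild type 6.

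Srgn, the serglycin core on which mast cell proteases are packed and which lymphocytes make as well, read 5.93, 6.10 and 6.88 in the knockouts and 6.47, 6.48 and 9.14 in wild type. Wild type 6, the array rich in lymphocyte markers, held the highest value. The difference was -1.06 (SE 0.73), and -0.17 without that array.

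No other measured gene of the Cma1 cluster separated the genotypes. The RefSeq table places 15 protein-coding genes from Cma1 to Gzmb, and 13 had a probe set of 1 symbol. The 12 besides Cma1, which include Mcpt1, Mcpt2, Mcpt4 and the granzymes of cytotoxic lymphocytes, differed by -0.64 (Gzmb) to 0.16 (Gzmn), and knockout and wild-type values overlapped in each. Of all genes, 5.5% had every knockout array above every wild-type array and 4.83% had every knockout array below. With so few cluster genes, an absence of such genes is near those shares. Of the 9 besides Mcpt1, Mcpt2 and Mcpt4, 0 had a mean above the median gene; whether such dim values exceed background is not shown, so a change in them could have been missed. Cma2 and Mcpt9 had no probe set of 1 symbol. Mcpt8, a protease of basophils, differed by 0.08. 

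Of 10 marker lists of other cell types, 8 had levels that overlapped between the genotypes. What share of other gene lists would overlap was not worked out, so this count is a description. The T cell level was -0.51 to 0.06 for knockout arrays and -0.25 to 1.25 for wild type, and the macrophage level -0.27 to 0.13 against -0.53 to 0.83. The fibroblast level was below that of wild type in every knockout array (-0.36 to -0.12 against -0.08 to 0.70), the opposite direction to Cma1. Taken singly, 3 of its 7 genes lay below in every knockout array, where 4.83% of all genes did. The T cell, macrophage and fibroblast levels were each highest in wild type 6. The basophil level was above that of wild type in every knockout array (-0.01 to 0.22 against -0.20 to -0.02), by a narrow margin; of its 3 measured genes, which differed by 0.08 to 0.12, 0 separated the genotypes and 0 had a mean above the median gene. Epithelial levels were within -0.03 to 0.03 in every array. The part of these cells in the Cma1 reading was not tested.

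**Figure D4:**
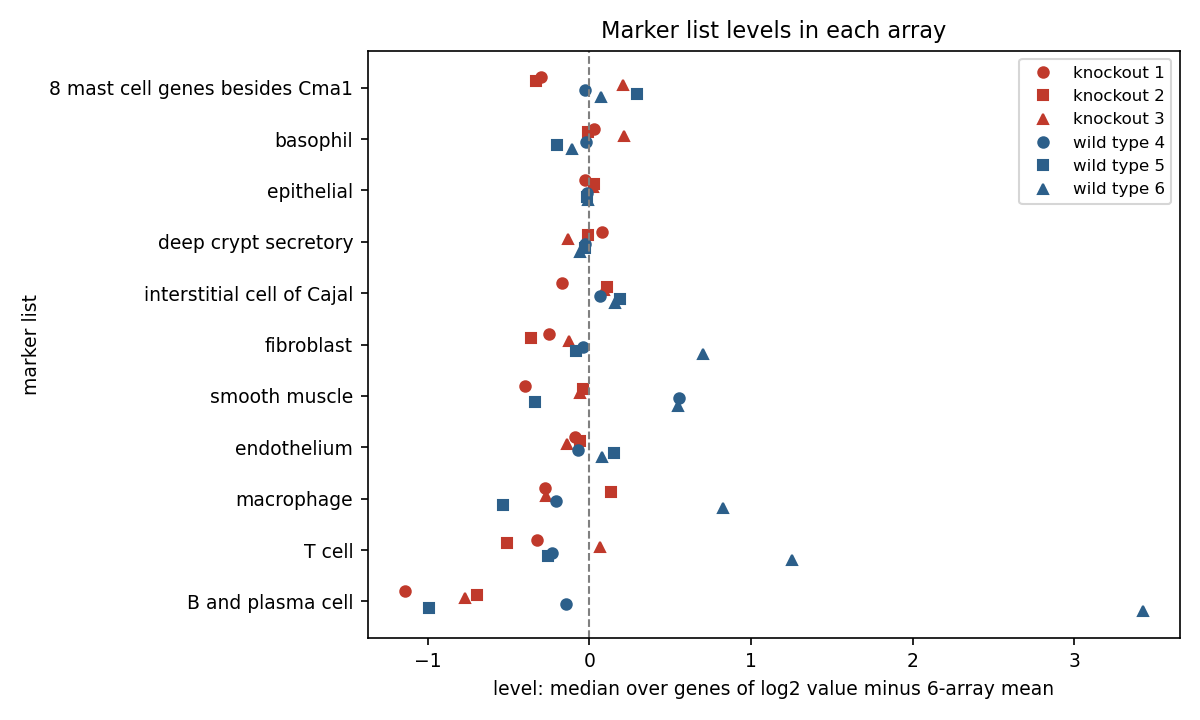
Level of each marker list (horizontal axis, median over genes of the log2 value minus the 6-array mean) by list (vertical axis), 1 point per array, red for knockout and blue for wild type. Wild type 6 is far out at 3.42 for B and plasma cells, and the 8 mast cell genes besides Cma1 spread from -0.33 to 0.29 with the genotypes mixed.

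The array profile of Cma1 was nearest to genes of other kinds. Likeness was measured as the root mean square difference over the 6 arrays between the log2 values of a gene and of Cma1, each centred on its own mean, so that smaller is more alike; a gene that does not vary at all would score 0.76. The nearest of 18193 genes was Acpp, an acid phosphatase, at 0.20. Bfsp1, a filament protein known from the eye lens, followed at 0.32, the beta-defensin Defb45 at 0.34, Cxcl1, a chemokine that attracts neutrophils, at 0.35, and Aplp1, of the amyloid precursor family, at 0.37. Being chosen for likeness to Cma1, all 5 stood higher in every knockout array. The other probe sets of Acpp, Cxcl1 and Aplp1 also had every knockout above every wild type, where 4.92% of all probe sets did. Their differences were smaller for Acpp (0.60 and 0.84) and Aplp1 (0.39), and 0.57 and 1.28 for Cxcl1. The Cxcl1 probe set at 0.57 separated narrowly, with a lowest knockout of 8.04 and a highest wild type of 8.02. These probe sets read the same genes in the same arrays, so they are not separate support.

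The 8 other mast cell genes all scored above 0.76, from 0.81 for Tpsb2 and Kit to 1.03 for Mcpt1, and so lay farther from Cma1 than a gene that does not vary; 58.7% of all genes did. Mcpt1 ranked 17339 of 18193 and Mcpt4 16731. For a gene unrelated to Cma1 the score grows with that gene's own spread, and Mcpt1 varied widely. The rank of Mcpt1 therefore does not show an opposite pattern. Mcpt4 varied less, with a 6-array range of 0.78 against 1.98 for Mcpt1. Whether the rank of Mcpt4 reflects more than spread was not tested. The Cma1 profile is largely the genotype difference that chose it, so the distances are a description and not a further test.

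**Figure D5:**
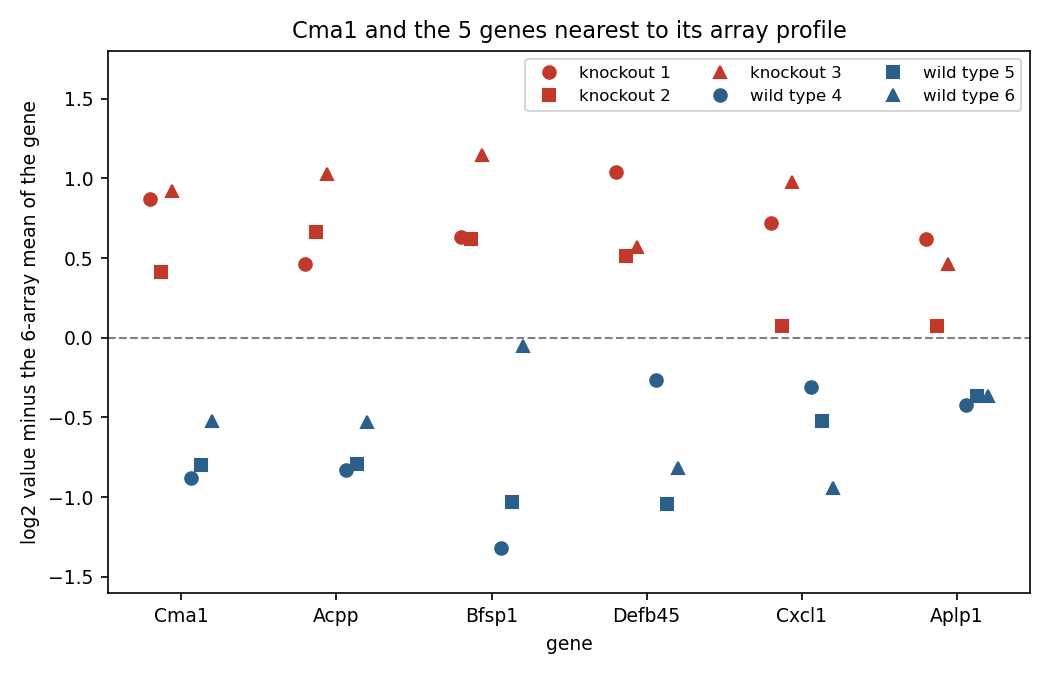
Log2 value minus the 6-array mean of the gene (vertical axis) for Cma1 and the 5 genes nearest to its profile (horizontal axis), 1 point per array, red for knockout and blue for wild type. The genes were selected for this likeness, so the separation of the genotypes is not a test.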

How the data were processed

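Per the submitters' processing notes, the authors made the deposited log2 values with RMA; no version is given in the sources used here. Per the labels' protocols, 30 ng of RNA from each pool was amplified (NuGEN WT-Ovation pico) and read on Affymetrix Mouse Genome 430 2.0 arrays; such amplification can read low transcripts unevenly. Array medians were 5.44 to 5.58. No scanner files, scan dates or detection calls were used here, so batches could not be tested; 3 arrays per group limit the precision. Probe sets were named from the platform annotation, 34958 with 1 symbol. Knockout was compared with wild type by limma 3.58.1 in R 4.3.3 (lmFit, eBayes, two-sided) on all 45101 probe sets with Benjamini-Hochberg adjustment, threshold 0.05, after a check on simulated data. Gene-level values use the probe set with the highest mean. P-values measure the spread between pools. Named genes were the members, the 5 genes most like Cma1 and a fixed set of further mast cell and marker genes; Il1rl1, of that set, had no probe set of 1 symbol. Alternatives were cyclic loess, brighter probe sets, 1 probe set a gene, averaging the probe sets of a gene, dropping _x_at, _s_at and _a_at probe sets, trend with robust estimation, array weights, an epithelial scale and leaving out each array. The members and lists were chosen with earlier results of these data known.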

Additional observations from a re-analysis of the deposited data

How the results depend on the processing

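The Cma1 difference of 1.47 ran from 1.37 (without knockout 3) to 1.63 (without knockout 2) when 1 array was left out and from 1.40 to 1.56 under cyclic loess, array weights and the epithelial scale. The median of the other 8 genes, -0.12, ran from -0.50 to 0.028 with 1 array left out and from -0.16 to -0.05 under cyclic loess, array weights, the epithelial scale, averaging the probe sets of a gene and dropping _x_at, _s_at and _a_at probe sets. That last setting kept 6 of the 8 genes and has no value for Cma1. With array weights Mcpt1, Mcpt2 and Cpa3 differed by 0.15, 0.16 and 0.10, above 0, and Kit by -0.08; on the epithelial scale Fcer1a differed by 0.03. limma called 0 probe sets in every setting run (smallest adjusted p = 0.119, with array weights) except without wild type 6, where it called 3 (Lrg1, Pla2g2a and Rgcc); none of these is a mast cell gene listed here. No paired analysis was possible because the replicate numbers in the labels, 1 to 3 and 4 to 6, are not shared between the groups. Most members were dim, so small changes in them could have been missed. The intervals of Mcpt1 (-1.46 to 1.14), Mcpt2 (-1.05 to 0.87) and Cpa3 (-1.20 to 0.78) leave room for larger changes too.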

Other observations

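The profile of Mcpt1 was compared with all genes in the same way, a step added after the data were seen. Mcpt2 was the nearest of 18193 genes (root mean square difference 0.24, where a gene that does not vary scores 0.70). Cpa3 ranked 27 at 0.42, Mcpt4 ranked 77 at 0.49 and Ms4a2 ranked 110 at 0.51, whereas Cma1 ranked 17739 at 1.03, Kit 14631, Fcer1a 12174 and Tpsb2 11830. The next nearest after Mcpt2 were the class I gene H2-Q2 (0.31), a probe set of the ciliary gene Ift122 (0.33), a probe set of the matrix gene Fbln1 (0.35) and the kinase gene Nim1k (0.36), all highest in knockout 3. For a gene unrelated to Mcpt1 the score grows with that gene's own spread, so the rank of Cma1 does not show an opposite pattern. The dim readings of Mcpt4 and Ms4a2 are not shown to be above background, and nothing here was tested.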
